A study of Homo sapiens with 16 samples.

Results

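LN229 cells, an established human glioblastoma line, were kept in ischemic culture with either the MK2 inhibitor MK25 or its vehicle DMSO, and their RNA was sequenced from 2 libraries of each. These 4 libraries, chosen by their labelled culture and treatment, are compared here over all 14024 genes of the experiment's expression table. They belong to an experiment of 12 libraries, in which DMSO, MK25 and the p38α inhibitor VX745 were each given in regular and in ischemic culture, and the series holds 16 libraries in all. The other 4 libraries come from a separately normalized experiment on cells without inhibitor, 2 in regular and 2 in ischemic culture. It is called the first experiment here, and the order in time is not given in the sources used here. Ischemic culture combined about 1% oxygen with 1% serum, and its medium held glutamine at 0.1 mM and glucose at 2 mM, and regular culture was complete medium with 10% serum. The study's methods list MK25 at 10 µM and VX745 at 2 µM, without naming the sequenced cells. The time that the sequenced cells spent in ischemic culture and with inhibitor is not given in the sources used here. The comparison thus rests on 1 cell line and 1 compound against MK2, and nothing in the labels says that the replicate libraries came from separate cultures, so the p-values measure the spread between these libraries, which may be technical. The question it addresses is which part of the gene expression of these ischemic glioblastoma cells changes with MK25. Whether a change came through MK2 or through another target of the compound was not tested.

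MK2, encoded by MAPKAPK2, is a protein kinase that is switched on by the stress-activated kinase p38α, encoded by MAPK14. It is best known for phosphorylating proteins that bind AU-rich elements, which are sequences that shorten the life of mRNAs of cytokines, chemokines and immediate early genes, and for phosphorylating the small heat shock protein HSPB1. In many cells the loss of MK2 activity lowers the output of inflammatory mediators. Because an inhibitor acts on the kinase protein, the mRNA of MAPK14 or MAPKAPK2 does not check whether the kinase was inhibited.

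The deposited values are log2 normalized CPM, that is read counts scaled for library size, on which a difference of 1 is a change of 2-fold. The 2 DMSO libraries held 27239609 and 32850374 reads on the listed genes and the 2 MK25 libraries held 37562668 and 35795468. Replicates differed by more than counting noise in both groups, with a chi-square per gene of 4.47 for DMSO and 6.32 for MK25. The values were spread more widely in the DMSO libraries, with an SD over genes of 2.55 to 2.56, than in the MK25 libraries, with 2.42, and in ischemic VX745, with 2.43. Of 8 markers of a glioma line 7 were listed and CHI3L1 was not. The 7 were abundant, with log2 values from 7.66 to 12.97 in the 4 libraries, and VIM and FN1 lay between 12.10 and 12.97. Of the 6 astrocyte markers 3 were listed. Their summed level was 41.1 to 44.4 CPM with DMSO and 38.6 to 38.7 CPM with MK25. GFAP, the intermediate filament of astrocytes, was the lowest of the 3 and lay between −0.36 and 0.41. The highest log2 value of the 3 was 4.96. Of the 5 neuron markers 4 were listed. Their summed level was 102 to 104 CPM with DMSO and 81.8 to 89.6 CPM with MK25. None of the 4 endothelial and 2 of the 7 leukocyte markers were among the listed genes, and of these 2 CSF1R lay between −0.74 and 0.03. CD68, also a lysosomal protein of other cells, lay between 5.72 and 5.94. Of the 6 oligodendrocyte markers 4 were listed, with a summed level of 595 to 623 CPM with DMSO and 702 to 729 CPM with MK25. Of the 5 epithelial markers 2 were listed, with a summed level of 218 to 227 CPM with DMSO and 136 to 143 CPM with MK25, and of these KRT18, a keratin, changed by −0.80. The part of these shifts in other results was not tested.

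MK25 changed the expression of 1356 genes in ischemic cells by the criteria for a call, which are a change of 1.5-fold or more with an adjusted p below 0.05. It raised 985 genes, which is 7.02% of those tested, and lowered 371, which is 2.65%, so that raised genes made up 72.6% of the calls. After quantile normalization, which gives all libraries the same distribution of values, the counts were 629 and 486 and the raised share was 56.4%. The median fold change was 1.79 among the genes raised and 1.73 among those lowered. The change reached 2-fold in 290 of the genes raised and 94 of the genes lowered, and 4-fold in 14 and 5. The DMSO and MK25 libraries did not overlap in any of the 985 genes raised or in 369 of the 371 lowered. The criteria for a call favour such a separation, so these counts are no further support for the calls. The share over all genes is not given here. At an adjusted p under 0.05 without a limit on the fold, 2770 genes (19.8%) were higher and 3080 (22%) lower with MK25, so that small shifts were many and ran about equally in both directions. The median log2 fold change over all genes was 0.00.

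The direction of the calls followed the level of expression. In the lowest of 4 equal bins of genes by mean level, 16.6% were raised and 3.62% lowered, and in the highest bin 1.37% were raised and 2.94% lowered. The median log2 fold change fell from 0.23 in the lowest bin through 0.06 and −0.04 to −0.13 in the highest. Long noncoding RNAs, which are mostly weakly expressed, were raised in 110 and lowered in 22 of 841 cases, against 833 raised and 306 lowered among 12667 protein-coding genes. The wider spread of values in the DMSO libraries moved with this pattern, and after quantile normalization the lowest bin had 7.93% raised and 7.16% lowered and the highest 1.97% and 1.57%. Whether the difference in spread comes from the cells or from the libraries was not tested.

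**Figure D1:**
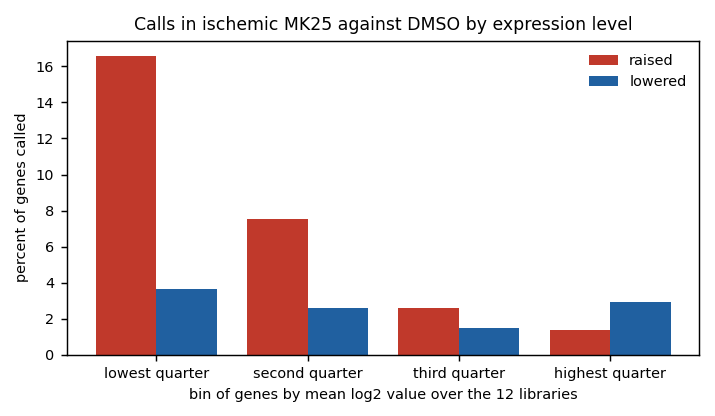
Percent of genes called raised (red) and lowered (blue) in ischemic MK25 against DMSO cells, in 4 bins of 3506 genes ordered by mean log2 value over the 12 libraries of the experiment. Raised genes fall from 16.6% in the lowest bin to 1.37% in the highest, where lowered genes, at 2.94%, are the more frequent.

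Among genes that averaged 3 or more on the log2 scale in the 4 libraries, the largest fall was that of IL1RL1 (identifier 9173, chromosome 2, 102311563 to 102352356 of GRCh38.p14), which encodes the receptor of interleukin 33. Its log2 values were 4.45 and 4.52 with DMSO and 1.98 and 2.01 with MK25. The fall of −2.49 (SE 0.11, adjusted p = 9.81e-11) is 5.6-fold, many times the distance between replicates, where SE is the standard error and p is from limma. EGR1 (identifier 1958, chromosome 5, 138465479 to 138469303), a zinc finger transcription factor induced within minutes of a stimulus, had 6.97 and 6.93 with DMSO and 4.62 and 4.53 with MK25, a log2 fold change of −2.37 (SE 0.11, adjusted p = 1.37e-10). The other falls among the 12 largest were smaller. PTHLH, the parathyroid hormone-like hormone, had 5.43 and 5.39 with DMSO and 3.50 and 3.55 with MK25, a log2 fold change of −1.88 (SE 0.09). In each of these genes both MK25 libraries lay below both DMSO libraries, as the rule of choice required, and by more than 1.5 log2 units.

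SPRR2D, a protein of the cornified envelope of skin, changed by −1.81 (SE 0.15), a value that is uncertain because the gene belongs to a family of near-identical neighbours between which the counting could split reads. SESN2, a sestrin that restrains the growth kinase complex mTORC1, had 7.05 and 7.20 with DMSO and 5.63 and 5.48 with MK25 and a log2 fold change of −1.57 (SE 0.08). The secreted factors BMP2 and follistatin (FST), which binds activins, changed by −1.55 and −1.52. ERRFI1, an inhibitor of the EGF receptor, was one of the most abundant of these genes and had 8.98 and 8.94 with DMSO and 7.57 and 7.56 with MK25, a log2 fold change of −1.39 (SE 0.05). DUSP5, a phosphatase of nuclear ERK, fell by 1.29, the receptor GPRC5A by 1.26, and CXCL8, the chemokine of neutrophils, by 1.23 on the log2 scale. All 12 falls remained calls under the 13 other settings in which they were refitted.

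**Figure D2:**
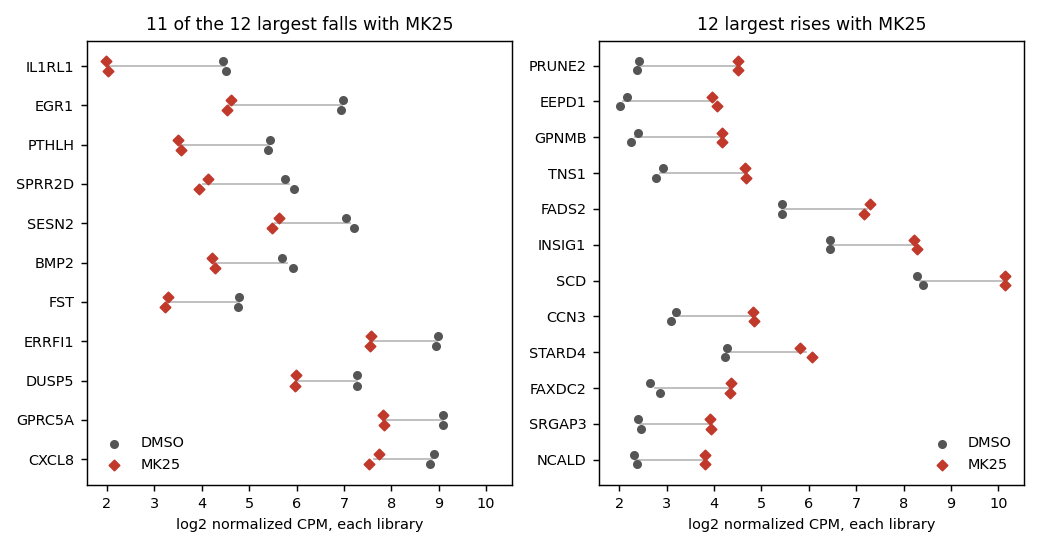
Log2 normalized CPM in each ischemic library of 11 of the 12 genes with the largest fall (left) and the 12 with the largest rise (right) with MK25, with grey circles for the 2 DMSO and red diamonds for the 2 MK25 libraries and a line between group means. In all 23 genes the groups are apart, as the rule of choice required. Values run from 4.45 and 4.52 against 1.98 and 2.01 for IL1RL1 to 8.29 and 8.41 against 10.14 and 10.13 for SCD.

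Inflammatory mediators were a mixed group in which falls prevailed. Of 25 measured members of the list, 12 fell, 4 rose and 9 were not called, and the median log2 fold change was −0.44, against 7.02% raised, 2.65% lowered and a median of 0.00 over all genes. All 5 measured members of the interleukin 1 family fell. The cytokine IL1A had 5.32 and 5.25 with DMSO and 4.17 and 4.26 with MK25, a log2 fold change of −1.07 (SE 0.13, adjusted p = 5.87e-06). IL1B had 4.81 and 4.80 with DMSO and 3.67 and 3.71 with MK25, a log2 fold change of −1.12 (SE 0.10, adjusted p = 2.49e-07). The receptor chains IL1R1 and IL1RAP changed by −0.70 and −0.69, so ligands and receptors of this family moved the same way.

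Of the other 9 cytokines measured, 4 fell and 1 rose. IL11, a cytokine of the interleukin 6 type, had 6.57 and 6.66 with DMSO and 5.42 and 5.45 with MK25, a log2 fold change of −1.18 (SE 0.06, adjusted p = 3.81e-10), and LIF, of the same type, changed by −0.60, which was not a call after quantile normalization. CSF2, the granulocyte and macrophage colony-stimulating factor, changed by −1.03 and TSLP by −0.89, both from low levels of under 3 with DMSO. CSF1, the growth factor of macrophages, rose instead, from 3.63 and 3.72 to 4.49 and 4.30, a log2 fold change of 0.72 (SE 0.09). Chemokines were divided. CXCL8 had 8.91 and 8.81 with DMSO and 7.73 and 7.53 with MK25, a log2 fold change of −1.23 (SE 0.08, adjusted p = 9.38e-09), and CCL20 changed by −1.21, while CCL2, which attracts monocytes, had 2.78 and 2.84 with DMSO and 4.03 and 3.49 with MK25 and rose by 0.95, and CX3CL1 rose by 0.99. The 2 steps of prostaglandin E2 synthesis also moved apart. PTGS2, the inducible cyclooxygenase, had 6.65 and 6.71 with DMSO and 6.0 and 6.03 with MK25, a log2 fold change of −0.66 (SE 0.08, adjusted p = 9.72e-06), and PTGES, the synthase that follows it, had 5.41 and 5.30 with DMSO and 6.43 and 6.39 with MK25, a log2 fold change of 1.06 (SE 0.08, adjusted p = 4.63e-08).

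Immediate early genes, which cells transcribe without new protein synthesis after a stimulus, fell in 13 of 28 measured cases and rose in 1. Their median was −0.48, and among all genes 2.65% fell and 7.02% rose. In the EGR and NR4A families 5 of 6 members fell. NR4A1, a nuclear receptor, had 6.83 and 6.88 with DMSO and 6.08 and 5.98 with MK25, a log2 fold change of −0.83 (SE 0.07). NR4A2, EGR2 and EGR3 changed by −0.71, −0.88 and −0.78. The AP-1 genes did not move together. FOS had 3.32 and 3.18 with DMSO and 4.63 and 4.47 with MK25 and rose by 1.30 (SE 0.12), while FOSB changed by −0.71 and JUN, with 8.47 and 8.78 with DMSO and 8.08 and 7.99 with MK25, by −0.59. Of the further members, MYC had 6.85 and 6.91 with DMSO and 5.75 and 5.60 with MK25, a log2 fold change of −1.20 (SE 0.08, adjusted p = 8.31e-09). KLF5, KLF4, IER2, ATF3 and SGK1 fell by between 0.61 and 1.15 on the log2 scale, with −1.15 for KLF5 and −0.61 for KLF4. JUN was no longer called after quantile normalization.

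The promoter of EGR1 is shown because EGR1 was the most strongly lowered transcription factor gene among the 12 largest falls and because its upstream bases hold a recognizable element of immediate early genes, the CArG box, to which serum response factor binds. The 250 bases before its annotated start (chr5:138465229-138465478, plus strand, RefSeq, GRCh38.p14) hold 2 CArG boxes, set in capitals, whose nearer ends lie 96 and 74 bases before the start.
EGR1: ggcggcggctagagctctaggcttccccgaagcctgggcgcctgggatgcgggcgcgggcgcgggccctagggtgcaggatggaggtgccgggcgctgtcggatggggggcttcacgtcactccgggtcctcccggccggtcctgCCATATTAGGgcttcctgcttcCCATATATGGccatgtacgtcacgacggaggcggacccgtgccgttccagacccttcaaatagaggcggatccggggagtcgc
A CArG box, which reads the same way on both strands, occurs in 1.06% of the 16190 promoters of this length that RefSeq lists for 11087 of the genes tested, and 1.46% of these genes have a promoter with one. Among 22 immediate early genes with a promoter in that table, EGR1, EGR2 and SRF hold one. Of these 3, EGR1 and EGR2 fell with MK25 and SRF, which changed by 0.01, was not called. A match of letters is a description of the sequence and does not show that a factor binds there.

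Of 20 measured ERK feedback genes, a list of phosphatases, inhibitors and targets, 6 fell and 1 rose, with a median of −0.29. Among all genes 2.65% fell and 7.02% rose. PHLDA1, one of the 6, was not called after quantile normalization, where the list again had 6 falls. The phosphatase gene DUSP5 had 7.27 and 7.27 with DMSO and 5.99 and 5.97 with MK25, a log2 fold change of −1.29 (SE 0.07, adjusted p = 3.26e-10). DUSP10, whose product acts on p38 and JNK, had 7.33 and 7.38 with DMSO and 6.30 and 6.45 with MK25 and changed by −0.98. The Sprouty genes, inhibitors of receptor tyrosine kinase signals, differed among themselves, with falls of SPRY2 by 0.79 and SPRY4 by 0.92 and a rise of SPRY1 from 4.69 and 4.84 to 5.55 and 5.53. Of 6 measured ligands of the EGF receptor family, NRG1, HBEGF and EREG fell. NRG1 had 4.98 and 4.97 with DMSO and 3.80 and 3.72 with MK25, a log2 fold change of −1.21 (SE 0.10), and HBEGF changed by −0.69. EREG had 1.02 and 1.03 with DMSO and −1.06 and −0.65 with MK25. None of the 4 receptors was called.

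Stress programmes that lack of amino acids and of folding capacity sets off were lower in part. ATF4 is a transcription factor that is translated when the initiation factor eIF2α is phosphorylated, and it drives genes of amino acid synthesis and uptake. Of 40 measured ATF4 and CHOP targets 7 fell and 1 rose, and 29 were lower and 3 higher at an adjusted p under 0.05 without a limit on the fold, with a median of −0.36. Over all genes 2.65% fell and 7.02% rose, and without that limit 22% were lower and 19.8% higher. Among the enzymes, MTHFD2, of mitochondrial folate metabolism, had 9.07 and 9.04 with DMSO and 8.17 and 8.19 with MK25, a log2 fold change of −0.87 (SE 0.06, adjusted p = 1.97e-08). ASNS, asparagine synthetase, had 9.51 and 9.47 with DMSO and 8.86 and 8.88 with MK25 and changed by −0.61, and CTH, of cysteine synthesis, by −0.77. The transporters SLC7A11, of cystine, and SLC1A5, of glutamine, changed by −0.84 and −0.64. NUPR1 went the other way, from 2.22 and 2.34 to 3.36 and 3.21. ATF4 itself had 10.29 and 10.31 with DMSO and 9.93 and 9.83 with MK25, a log2 fold change of −0.42 that did not reach the fold of a call. After quantile normalization the median of the list was −0.13 and ASNS and SLC1A5 were no longer called, while SESN2, MTHFD2, CTH, SLC7A11 and ATF3 still were.

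Among 23 genes of the unfolded protein response, 3 fell and none rose, and 14 were lower and 1 higher without a limit on the fold. Of all genes 2.65% fell and 7.02% rose, and 22% were lower and 19.8% higher without that limit. The median of the list was −0.22, and −0.11 after quantile normalization. XBP1, the factor whose mRNA the sensor IRE1 splices, had 8.38 and 8.47 with DMSO and 7.29 and 7.22 with MK25, a log2 fold change of −1.17 (SE 0.06, adjusted p = 5.53e-10). HSPA5, the main chaperone of the endoplasmic reticulum, had 10.59 and 10.63 with DMSO and 10.01 and 9.94 with MK25 and changed by −0.63, and DNAJB9 changed by −0.77. Of 12 cytosolic chaperones, DNAJB1, a partner of HSP70, had 9.54 and 9.56 with DMSO and 8.45 and 8.47 with MK25, a log2 fold change of −1.08 (SE 0.12, adjusted p = 2.75e-06), and HSP90AA1 changed by −0.73. HSPA5 and HSP90AA1 were no longer called after quantile normalization. Of 24 targets of the oxidative stress factor NRF2, TXNRD1 (no longer called under that setting) and SLC7A11 fell and SQSTM1, an autophagy adaptor, rose from 10.22 and 10.21 to 10.95 and 10.86. MAP1LC3B, another protein of autophagy, changed by −0.78.

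Of 30 S phase genes 3 fell and none rose, and 21 were lower and none higher without a limit on the fold. Over all genes 2.65% fell, and 22% were lower and 19.8% higher without that limit. The median of the list was −0.29, and −0.22 after quantile normalization. RRM2, a subunit of ribonucleotide reductase, had 9.37 and 9.39 with DMSO and 8.54 and 8.65 with MK25 and a log2 fold change of −0.79 (SE 0.06), and the cyclins CCNE1 and CCNE2 changed by −0.74 and −0.89. Of the G1 genes, CCND1 had 8.22 and 8.24 with DMSO and 7.36 and 7.31 with MK25, a log2 fold change of −0.89 (SE 0.06, adjusted p = 5.05e-09), and CDK6, its partner kinase, changed by −0.82. RRM2 was not called after quantile normalization. None of 25 genes of mitosis was called, and their median was 0.04.

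Among genes of cell death, PMAIP1, which encodes the pro-apoptotic protein NOXA, had 5.87 and 5.75 with DMSO and 4.69 and 4.71 with MK25, a log2 fold change of −1.10 (SE 0.07, adjusted p = 6.51e-09), while BMF, of the same class, rose by 0.89 from a low level. None of 5 anti-apoptotic BCL2 genes was called, and of all genes 7.02% were raised and 2.65% lowered. Of 15 matrix proteases and inhibitors 3 fell and none rose, among them PLAUR, the urokinase receptor, with 7.39 and 7.36 with DMSO and 6.61 and 6.54 with MK25 and a log2 fold change of −0.80 (SE 0.06), and the collagenase MMP1 with −1.24.

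Of 24 measured genes of the TGF-beta family, which includes the bone morphogenetic proteins (BMPs), 6 rose and 3 fell, with a median of 0.05. The shares over all genes were 7.02% raised and 2.65% lowered. BMP2 had 5.69 and 5.92 with DMSO and 4.21 and 4.28 with MK25, a log2 fold change of −1.55 (SE 0.08, adjusted p = 5.91e-10), INHBA, the chain of activin A, changed by −0.93 and TGFB2 by −0.76, while BMP4 rose by 0.92 from a low level. Of the 14 targets in the list 4 rose, none fell and 10 were not called. ID2, an inhibitor of basic helix-loop-helix factors, had 3.88 and 3.66 with DMSO and 4.84 and 5.09 with MK25, a log2 fold change of 1.19 (SE 0.10, adjusted p = 1.54e-07). ID1, ID3 and SMAD6, an inhibitory SMAD, rose by 0.76, 0.62 and 1.14.

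Of the 12 largest rises among genes averaging 3 or more on the log2 scale, 4 are genes of lipid synthesis and its control. PRUNE2 (identifier 158471, chromosome 9, 76611376 to 76906114) rose most and had 2.41 and 2.37 with DMSO and 4.50 and 4.51 with MK25, a log2 fold change of 2.12 (SE 0.12, adjusted p = 1.99e-09). EEPD1 had 2.16 and 2.02 with DMSO and 3.95 and 4.07 with MK25, a log2 fold change of 1.92 (SE 0.12), and GPNMB, a glycoprotein of lysosomes and melanosomes, had 2.40 and 2.25 with DMSO and 4.16 and 4.17 with MK25, a log2 fold change of 1.84 (SE 0.11). TNS1, a protein of focal adhesions, rose by 1.81 (SE 0.19). The matrix protein gene CCN3, FAXDC2, the GTPase-activating protein gene SRGAP3 and NCALD, a calcium sensor, rose by between 1.48 and 1.68. The 4 lipid genes were FADS2, INSIG1, SCD and STARD4. The rule that chose these 12 genes required both MK25 libraries to lie above both DMSO libraries. All 12 remained calls under the 13 other settings in which they were refitted.

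Genes of sterol synthesis and uptake rose as a group. Cells make cholesterol through the mevalonate pathway, and the transcription factor SREBP2, encoded by SREBF2, turns on the genes of the pathway and of cholesterol uptake when sterols are scarce. Of 31 measured members 16 rose and none fell, against 7.02% raised and 2.65% lowered over all genes. Of the 31, 29 had a positive log2 fold change, and the median was 0.75. INSIG1 (identifier 3638, chromosome 7, 155297878 to 155310235), which holds the SREBP complex in the endoplasmic reticulum, had 6.45 and 6.45 with DMSO and 8.21 and 8.28 with MK25, a log2 fold change of 1.79 (SE 0.07, adjusted p = 3.73e-11). SREBF2 itself had 6.57 and 6.63 with DMSO and 8.04 and 7.96 with MK25, a log2 fold change of 1.40 (SE 0.06, adjusted p = 2.51e-11). The other 4 regulators were not called.

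Of 9 mevalonate enzymes 4 rose. HMGCS1, which makes hydroxymethylglutaryl-CoA, had 4.74 and 4.65 with DMSO and 5.84 and 5.87 with MK25, a log2 fold change of 1.16 (SE 0.07, adjusted p = 1.91e-09). IDI1 and MVK rose by 1.14 and 0.85. From squalene to cholesterol 7 of 12 enzymes rose, among them DHCR7, of the last step, with 6.01 and 6.0 with DMSO and 7.45 and 7.34 with MK25 and a log2 fold change of 1.39 (SE 0.06) and SQLE with 0.75. Of 4 genes of uptake and transport, STARD4, a carrier of cholesterol, had 4.28 and 4.24 with DMSO and 5.82 and 6.06 with MK25, a log2 fold change of 1.68 (SE 0.10). The 16 rises were also calls after quantile normalization.

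Of 7 measured genes of sterol efflux 2 fell and none rose, with a median of −0.20. ABCA1, which exports cholesterol to apolipoprotein A-I, had 6.20 and 6.11 with DMSO and 5.11 and 5.21 with MK25, a log2 fold change of −0.99 (SE 0.08, adjusted p = 1.34e-07), and ABCG1 changed by −0.67. The other 5 were not called. In fatty acid synthesis 5 of 16 genes rose and none fell, against 7.02% raised and 2.65% lowered over all genes. All 3 of the desaturases called had both MK25 libraries above both DMSO libraries, as had every gene called raised. SCD, which introduces the first double bond, had 8.29 and 8.41 with DMSO and 10.14 and 10.13 with MK25, a log2 fold change of 1.79 (SE 0.08, adjusted p = 4.44e-11). FADS2 (identifier 9415, chromosome 11, 61816203 to 61867354) had 5.44 and 5.42 with DMSO and 7.30 and 7.17 with MK25, a log2 fold change of 1.80 (SE 0.06, adjusted p = 9.73e-12), and FADS1 rose by 0.70. FASN, fatty acid synthase, had 9.07 and 9.15 with DMSO and 10.08 and 10.00 with MK25 and rose by 0.93.

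Promoters of SREBF2 and INSIG1 are shown because these 2 regulators rose and because SREBPs are known to bind sterol regulatory elements. The core CACNCCAC was searched on both strands of the 250 bases before each annotated start, and is set in capitals, for SREBF2 at chr22:41832855-41833104 and for INSIG1 at chr7:155297628-155297877, both on the plus strand (RefSeq, GRCh38.p14).
SREBF2: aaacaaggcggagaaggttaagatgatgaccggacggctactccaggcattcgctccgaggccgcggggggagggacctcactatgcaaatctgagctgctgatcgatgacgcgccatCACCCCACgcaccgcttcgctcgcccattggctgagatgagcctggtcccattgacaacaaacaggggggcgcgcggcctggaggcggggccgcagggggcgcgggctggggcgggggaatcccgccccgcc
INSIG1: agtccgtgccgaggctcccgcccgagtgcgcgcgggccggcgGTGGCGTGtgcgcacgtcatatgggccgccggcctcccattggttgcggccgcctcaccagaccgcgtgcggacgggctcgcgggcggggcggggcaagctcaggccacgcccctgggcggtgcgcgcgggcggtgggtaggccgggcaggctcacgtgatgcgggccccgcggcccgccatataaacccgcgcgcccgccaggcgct
The match lies on the plus strand in SREBF2, with its nearer end 125 bases before the start, and on the minus strand in INSIG1, 201 bases before it. The core occurs in 4.82% of the 16190 promoters and in a promoter of 6.49% of the 11087 genes. Of 25 genes of the list with a promoter in the table, 4 hold it, and of the 11 that rose 3 do, namely SREBF2, INSIG1 and IDI1.

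Interferon-stimulated genes, which encode antiviral proteins, rose in 5 of 17 measured cases, all from low levels, and fell in none. Their median was 0.38. Of all genes 7.02% were raised. In the lowest of the 4 bins by level 16.6% were raised, with a median of 0.23. IFIT1 had −1.33 and −0.70 with DMSO and 1.30 and 1.06 with MK25, a log2 fold change of 2.20 (SE 0.26, adjusted p = 4.38e-06). IFIT2 had −0.18 and 0.59 with DMSO and 1.77 and 1.96 with MK25, a log2 fold change of 1.66 (SE 0.26, adjusted p = 9.85e-05). IFIT3, MX1 and IFIH1, a sensor of double-stranded RNA, rose by 1.20, 0.73 and 0.80, and MX1 was no longer called after quantile normalization. The DMSO replicates of IFIT1, IFIT2 and IFIT3 lay further apart than their MK25 replicates. In none of the 5 genes did the groups overlap, as in every gene called raised.

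The promoter of IFIT1 is shown because IFIT1 had the largest rise of the list. The 250 bases before its start (chr10:89392373-89392622, plus strand, RefSeq, GRCh38.p14) hold 2 matches of the core of the interferon-stimulated response element, GAAANNGAAA, both on the minus strand and set in capitals.
IFIT1: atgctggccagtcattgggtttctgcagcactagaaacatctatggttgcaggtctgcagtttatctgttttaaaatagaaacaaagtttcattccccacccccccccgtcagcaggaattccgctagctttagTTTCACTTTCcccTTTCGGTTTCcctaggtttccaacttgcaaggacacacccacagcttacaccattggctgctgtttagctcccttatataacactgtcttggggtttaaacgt
The core occurs in 2.4% of the 16190 promoters and in a promoter of 3.3% of the 11087 genes. It occurs in 10 of 15 genes of the list with a promoter in the table, including the 4 of these that rose, IFIT1, IFIT3, MX1 and IFIH1, and 6 that were not called.

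Several programmes around p38 and ischemia held few calls. Of all genes 7.02% were raised and 2.65% lowered, so the 1 to 4 calls in these lists are not read as a change of the list. Of 25 measured genes of p38 and its kinases 1 was called. MAPK14 had 5.78 and 5.76 with DMSO and 6.03 and 5.95 with MK25, a log2 fold change of 0.22 (SE 0.06, adjusted p = 0.00415), and MAPKAPK2 had 7.13 and 7.23 with DMSO and 7.09 and 6.98 with MK25, a log2 fold change of −0.15 (SE 0.06, adjusted p = 0.053). The call was MAP2K6, a kinase that activates p38, with 2.02 and 2.21 with DMSO and 3.73 and 3.68 with MK25 and a log2 fold change of 1.59 (SE 0.10, adjusted p = 5.05e-09). None of 23 genes of AU-rich element decay was called. Of 19 genes of NF-kB and its targets, 1 rose, TNFAIP3, an inhibitor of the pathway, with 7.15 and 7.26 with DMSO and 8.16 and 8.04 with MK25 and a log2 fold change of 0.90 (SE 0.07), and the 5 subunits were not called. The median of this list was 0.21, and 3 members rose after quantile normalization. Without a limit on the fold 7 were higher and 2 lower, against 19.8% and 22% of all genes. Of 42 targets of hypoxia-inducible factors (HIFs) 3 rose and 1 fell, close to the shares over all genes. Their median was −0.09 and became 0.13 after quantile normalization. IGFBP3, the one that fell, had 9.08 and 9.02 with DMSO and 8.44 and 8.42 with MK25 and was not called under that setting. Of 34 ribosomal protein genes none was called, but 33 were lower and none higher without a limit on the fold, against 22% and 19.8% of all genes. Their median of −0.37 shrank to −0.13 after quantile normalization. Reads of ribosomal protein genes may be shared with their processed pseudogenes. Of 25 nuclear genes of oxidative phosphorylation none was called, but 15 were lower and none higher without a limit on the fold. Their median was −0.18, and −0.09 after quantile normalization. Of 17 genes of the YAP pathway 1 fell, TEAD4, by 0.82, and of 14 contractile and actin genes 1 rose, ACTA2, by 0.76. Without a limit on the fold 11 of the 17 were lower and none higher, and 8 of the 14 lower and 1 higher. The medians of −0.24 and −0.22 became −0.08 and −0.09 after quantile normalization. Of 13 clock genes DBP and BHLHE41 rose, by 1.09 and 0.69, and of 14 p53 targets GADD45B rose, by 0.99, and PMAIP1 and SESN2 fell. Of 10 genes of lipid droplets HILPDA rose, by 0.68, and ABHD5 fell, by 0.61. Of 19 genes of the extracellular matrix COL5A2 rose and ITGA6 fell, neither of them called after quantile normalization. Of 5 genes of metal binding and zinc transport SLC30A1 fell, by 0.71, and none of 8 genes of the aryl hydrocarbon receptor was called.

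**Figure D3:**
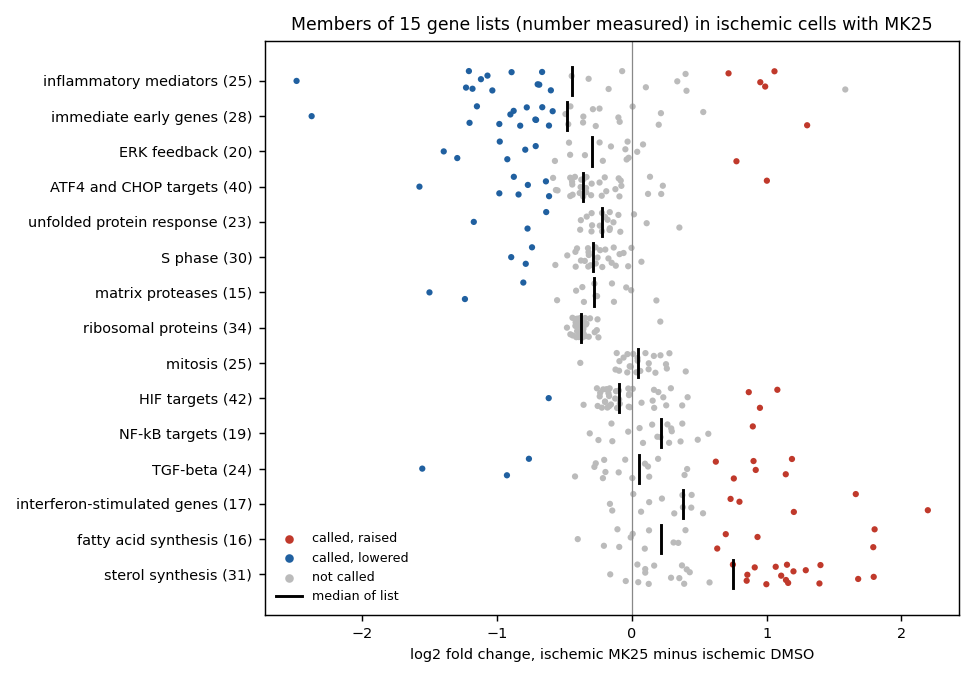
Log2 fold change (ischemic MK25 minus ischemic DMSO) of each measured member of 15 gene lists, with called genes in red (raised) or blue (lowered), other genes in grey and the list median as a black line. Sterol synthesis lies to the right, with a median of 0.75 and 16 of 31 members raised, inflammatory mediators and immediate early genes to the left, with medians of −0.44 and −0.48, and mitosis near 0, with a median of 0.04.

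How far MK25 moved the genes that ischemia itself moves was examined with the first experiment, whose libraries take no part in the comparison of MK25 with DMSO. In that experiment 1529 genes (11.3% of 13559) rose and 1234 (9.1%) fell in ischemic culture, by a change of 2-fold or more with an adjusted p below 0.05. Of these, 1499 and 1222 are also in the table of the MK25 experiment. Among the 1499 genes raised by ischemia MK25 lowered 104 (6.94%) and raised 120 (8.01%), and among the 1222 lowered by ischemia it raised 211 (17.3%) and lowered 40 (3.27%). Among the 10754 genes that ischemia did not change by these criteria, it raised 5.24% and lowered 1.98%. Both ischemia-regulated sets thus held larger shares of MK25 calls in each direction than the other genes. Among genes raised by ischemia the balance of directions depended on the setting, with 101 lowered and 87 raised after quantile normalization of both experiments and 129 lowered and 91 raised when the ischemia sets came from the DMSO libraries, which are also the controls for MK25. The median log2 fold change with MK25 was 0.00 among genes raised by ischemia and 0.13 among genes lowered by it, of which 38.4% had a value below 0. After the same normalization 133 genes lowered by ischemia were raised by MK25 and 79 lowered.

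**Figure D4:**
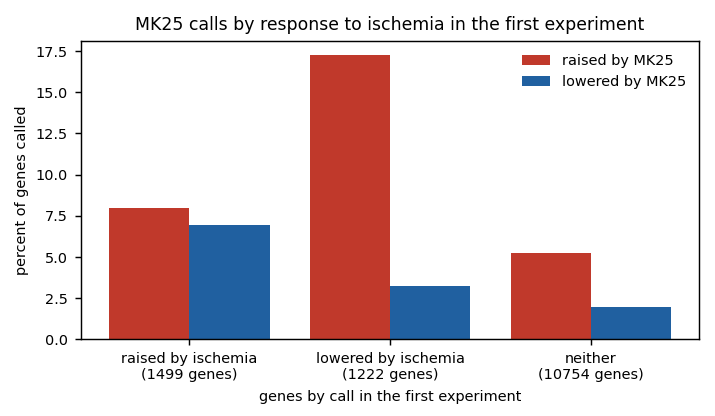
Percent of genes that MK25 raised (red) or lowered (blue) in ischemic cells, among genes that ischemia raised, lowered or did not change in the first experiment. MK25 lowered 6.94% and raised 8.01% of the genes raised by ischemia, and raised 17.3% of the genes lowered by ischemia.

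Of the 12 largest falls, 9 were of genes that ischemia had raised in the first experiment. SPRR2D had risen there by 7.12, CXCL8 by 4.40, IL1RL1 by 3.27, ERRFI1 by 2.79 and SESN2 by 1.88 on the log2 scale. MYC, XBP1, KLF5 and IL1B, with rises of 1.75, 2.82, 2.10 and 2.07, were also lowered by MK25. EGR1 was not among them, with a difference of 0.06 between the cultures in the first experiment and of 2.36 between the DMSO libraries of the second, 2 of which are also the controls for MK25. Genes lowered by ischemia and raised by MK25 included FASN, of lipid synthesis, with −1.24 in ischemia, and CCL2, with −2.09. Among genes raised by both, INSIG1 had 2.90 in ischemia, TNS1 3.90 and PTGES 2.90. CCND1, CCNE2 and HSP90AA1 were lowered by both, with −1.55, −1.89 and −1.69 in ischemia.

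The effect of MK25 depended on the culture for many genes. In regular culture, a comparison that shares no library with the ischemic one, MK25 raised 264 genes (1.88%) and lowered 85 (0.606%), or 174 without the first and 54 without the second of the regular DMSO libraries. The log2 fold changes in the cultures had a Pearson correlation of 0.244 across the 14024 genes, and genes do not count as replicates. The interaction, the difference between the effects in ischemic and regular culture, passed an adjusted p of 0.05 in 3424 genes (24.4%). It passed in 501 of the 985 genes raised in ischemic culture (50.9%) and in 264 of the 371 lowered (71.2%), but these genes were chosen for their effect in ischemic culture, which is a term of the interaction, so larger shares than among all genes are favoured beforehand. Of the 371 genes lowered in ischemic culture 15 were also lowered in regular culture and 4 were raised there, and of the 985 raised 105 were also raised and 3 lowered.

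Over all 14024 genes the interaction was negative in 1956 and positive in 1468. Of the 20 genes of ERK feedback 10 had a negative interaction and none a positive one, and of the 23 of the unfolded protein response 13 and none. After quantile normalization the negative interactions in these lists numbered 8 and 6. ERRFI1 had a log2 fold change of 0.04 in regular culture, with 5.98 and 5.99 with DMSO and 6.06 and 5.99 with MK25, and the interaction was −1.43 (adjusted p = 1.29e-09 from limma). SESN2 had 0.20 in regular culture, an interaction of −1.77 (adjusted p = 9.99e-09), EGR1 −0.39 and −1.98 (adjusted p = 2.28e-07), and IL1RL1 −0.34 and −2.14 (adjusted p = 8.41e-08). CXCL8 was higher with MK25 in regular culture, at 0.63, and lower in ischemic culture, at −1.23, an interaction of −1.86 (adjusted p = 1.07e-08). For IL1A, in contrast, the log2 fold changes were −1.07 and −0.73, and no difference was detected (adjusted p = 0.18). Of the 40 ATF4 and CHOP targets 33 had a negative interaction and none a positive one, and their median was 0.27 in regular culture. Of the 42 HIF targets 38 had a negative interaction and none a positive one, and MK25 raised 23 of the 42 in regular culture, where their median was 0.70. After quantile normalization the negative interactions numbered 27 and 33 and the positive ones 1 in each list. PPFIA4, which encodes a liprin and rose by 0.69 in ischemic culture, had the most significant interaction of the genes called there, since it rose by 3.03 in regular culture (interaction −2.33, adjusted p = 1.11e-09).

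The 4 genes with the most significant positive interaction among the calls were P3H1, a collagen prolyl hydroxylase, the long noncoding RNA BAIAP2-DT, the Polycomb gene CBX2 and AHDC1. P3H1 had 5.79 and 5.80 with DMSO and 6.79 and 6.66 with MK25 in ischemic culture and changed by −0.04 in regular culture, an interaction of 0.96 (adjusted p = 5.13e-07). For BAIAP2-DT, CBX2 and AHDC1 the interactions were 1.17, 0.97 and 1.24. These 4 genes rose with MK25 in ischemic culture by between 0.82 and 1.19 and their log2 difference between ischemic and regular DMSO cells, a comparison that shares the DMSO libraries, was −1.09 for P3H1, −1.16 for BAIAP2-DT, −1.01 for CBX2 and −1.07 for AHDC1. BAIAP2-DT is transcribed away from its neighbour BAIAP2, and whether the counting used strand is not given in the sources used here.

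Sterol genes, by contrast, rose in both cultures. In regular culture 24 of 31 members were raised, with a median of 1.12, and 19 had a negative interaction, that is a larger rise in regular culture, against 1 with a positive one. INSIG1 had 3.93 and 3.68 with DMSO and 7.35 and 7.38 with MK25 in regular culture, a log2 fold change of 3.56 against 1.79 in ischemic culture (interaction −1.77, adjusted p = 9.05e-09). HMGCS1 rose by 2.66 and 1.16 in regular and ischemic culture (interaction adjusted p = 1.23e-08). For FADS2, SCD and SREBF2 the interaction did not pass, with differences between the effects of 0.01, −0.14 and 0.09 (standard errors 0.09, 0.11 and 0.08). ABCA1 and ABCG1 fell in regular culture as well, by 1.42 and 1.37.

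**Figure D5:**
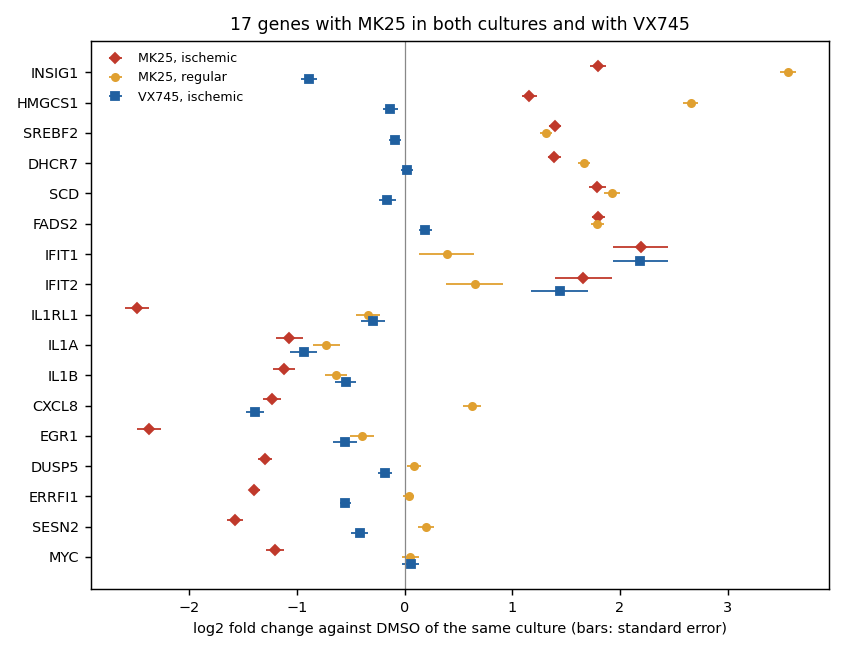
Log2 fold change against DMSO of the same culture for 17 genes, with red diamonds for MK25 in ischemic culture, yellow circles for MK25 in regular culture and blue squares for VX745 in ischemic culture, and bars of 1 standard error. INSIG1 rises with MK25 in both cultures, by 3.56 and 1.79, while EGR1 falls by 2.37 in ischemic culture with MK25 and shows −0.39 in regular culture and −0.55 with VX745.

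VX745 inhibits p38α, the kinase upstream of MK2, and the concentrations at which the sequenced cells received the compounds are not given in the sources used here. The comparisons of MK25 and of VX745 with DMSO share the 2 ischemic DMSO libraries, and the compounds were therefore compared directly. MK25 gave higher expression than VX745 for 246 genes (1.75%) and lower for 309 (2.2%). Among genes that MK25 raised against DMSO 161 of 985 were higher than with VX745, and among those it lowered 132 of 371 were lower, with sets whose choice used the MK25 libraries.

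Sterol genes differed between the compounds. Of 31 members 17 were higher with MK25 than with VX745 and none lower, and the median against DMSO was 0.75 with MK25 and −0.09 with VX745. INSIG1 differed most, with a log2 fold change against DMSO of 1.79 with MK25 and −0.89 with VX745 and a difference of 2.68 (adjusted p = 2.22e-13 from limma). For SREBF2, SCD and FADS2 the differences were 1.49, 1.95 and 1.61. On the lower side the most significant genes were CREB5, CCND1, IL1RL1 and ALDH1A3. CREB5, a transcription factor, changed by −0.95 with MK25 and 1.32 with VX745, a difference of −2.28 (adjusted p = 2.1e-11). CCND1 changed by −0.89 and 0.28, and ALDH1A3, which makes retinoic acid, by −1.14 and −0.02. JUN and FOS separated the compounds in opposite directions, with JUN at −0.59 and 0.79 and FOS at 1.30 and −0.30 (adjusted p = 4.46e-09 and 2.79e-08 for the differences). NF-kB and its targets also differed, with 6 of 19 genes higher with MK25 than with VX745 and none lower. Over all genes 1.75% were higher and 2.2% lower. The median of this list against DMSO was 0.21 with MK25 and −0.25 with VX745.

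For other genes no difference between the compounds was detected. CXCL8 changed by −1.23 with MK25 and −1.39 with VX745, a difference of 0.16 with a standard error of 0.08. GPRC5A changed by −1.26 and −1.32, and SPRR2D by −1.81 and −1.62. IFIT1 rose by 2.20 and 2.19, and none of 17 interferon-stimulated genes differed between the compounds at the criteria of a call. For a weakly expressed gene such as IFIT1 the difference had a standard error of 0.26, against 0.58 for the size of a call on the log2 scale, so a difference of that size would be hard to detect there. MAP2K6 rose with both compounds and less with MK25, by 1.59 against 2.22 (adjusted p = 0.00023).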

How the data were processed

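RNA of LN229 cells was sequenced as paired ends from SMART-Seq and Nextera XT libraries. In Galaxy, the authors aligned trimmed reads to GRCh38 with HISAT2, and they deposited log2 normalized CPM per library, by Entrez identifier. The counting program and its strand setting are not given in the sources used here. The values lie on steps of whole reads (100% within 0.1 reads), which gave the depth, 20122017 to 37562668 reads per library. No further logarithm, filter or normalization was applied. Of 14024 identifiers, 99.3% matched a RefSeq symbol (GRCh38.p14).

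All 12 libraries of the experiment were fitted with limma (version 3.58.1, R 4.3.3), with 1 mean per group and a variance trend, since the deposited values are not counts, and the first experiment likewise with its 4 libraries. The authors' test takes counts and was not used here. The p-values are two-sided and adjusted by Benjamini-Hochberg over all genes. A call needs a change of 1.5-fold or more (2-fold for ischemia in the first experiment, any size for the interaction) with an adjusted p below 0.05. The fit was tested on simulated data. Named genes are the 12 largest rises and falls among calls that average 3 or more on the log2 scale and have groups that do not overlap, 4 per direction with the smallest adjusted p among calls in the interaction and against VX745, MAPK14, MAPKAPK2, and members of 40 lists (651 of 726 genes measured). Some genes that this rule names are not reported here. Other genes lowered or raised in both experiments were named after their values were seen. The comparison, members and lists were chosen with earlier results of these data known.

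The alternatives were other thresholds, a minimum of 1 CPM, median centring, quantile normalization, no trend, the replicate block, fewer groups in the fit, voom on the recovered reads and each library left out. The crossed block and further uses of these settings were chosen after seeing the data. Intervals of counts and the floor of 3 reads cover counting error only.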

Additional observations from a re-analysis of the deposited data

Results flagged for a closer look

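The effect of MK25 was tested for a difference between ischemic and regular culture, and this difference passed an adjusted p of 0.05 (limma) in 3424 genes, positive in 1468 and negative in 1956. A positive value means that expression moved further up, or less far down, with MK25 in ischemic than in regular culture. Of the 12 largest rises, 9 were among these genes. The interaction on the log2 scale was 0.90 for PRUNE2, 1.46 for EEPD1, 0.55 for GPNMB, 1.87 for TNS1, 0.81 for CCN3, 0.70 for FAXDC2, 1.40 for SRGAP3 and 0.97 for NCALD, all larger rises in ischemic culture, and −1.77 for INSIG1, a larger rise in regular culture. For FADS2, SCD and STARD4 it did not pass.

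All 12 of the largest falls were among these genes, each with a deeper fall in ischemic culture. The interaction was −2.14 for IL1RL1, −1.98 for EGR1, −1.36 for PTHLH, −1.53 for SPRR2D, −1.77 for SESN2, −1.05 for BMP2, −1.44 for FST, −1.43 for ERRFI1, −1.38 for DUSP5, −1.26 for GPRC5A and −1.86 for CXCL8. These genes were chosen for a large fall in ischemic culture, which favours a negative interaction. Of the genes named for the interaction itself, it was 0.96 for P3H1, 1.17 for BAIAP2-DT, 0.97 for CBX2, 1.24 for AHDC1 and −2.33 for PPFIA4.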

How the results depend on the processing

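The 33 genes named by rule kept their direction and their call under the 13 other settings in which each was refitted. Of 178 recomputed counts 163 stayed within 1.5 times the reported one. Quantile normalization gave 629 raised genes in ischemic MK25 against DMSO, 322 raised and 192 lowered in ischemic VX745 against DMSO, and, among genes lowered in the first experiment, 133 raised and 79 lowered by MK25. By construction it removes the wider spread of the DMSO libraries. Without a limit on the fold change 2770 genes were raised and 3080 lowered, and at a fold change of at least 2 the counts were 290 and 94. With ischemia sets at a fold change of at least 1.5, MK25 raised 327 and lowered 71 of the genes lowered by ischemia and raised 191 and lowered 143 of those raised by it, since these sets hold more genes. With ischemia sets from the DMSO libraries, which are also the controls for MK25, it lowered 21 of the genes lowered by ischemia.

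With each library left out in turn, the raised genes in ischemic MK25 against DMSO ranged from 794 to 884 and the lowered from 339 to 389. In regular culture the raised genes ranged from 214 to 372 and the lowered from 54 (without regular DMSO replicate 2) to 174 (without replicate 1), so the lowered count there depends on each regular DMSO library. Each of these ranges covers only the libraries of the groups compared, although the other libraries also enter the fit. A group left with 1 library is assumed to vary like the others. Interactions ranged from 2471 to 3699, genes higher with MK25 than VX745 from 187 to 221 and lower from 250 to 280, and genes lowered in the first experiment and raised by MK25 from 173 to 227. With voom on the recovered reads 1067 genes were raised and 395 lowered. With the replicate number as a block 983 genes were raised and 370 lowered, and no count moved by over 1.5 times. The deviations of same-numbered replicates correlated between groups at −0.27 to 0.32, positively between the MK25 libraries of the 2 cultures (0.32) and between regular MK25 and VX745 (0.25) and negatively between ischemic DMSO and MK25 (−0.27), so the numbers were not taken as pairs. With crossed numbers 991 were raised and 376 lowered. Of the 985 genes raised and 371 lowered, 596 and 316 were also calls after quantile normalization. Weakly expressed genes are limited by depth, since 3 reads correspond to log2 values of −2.71 to −2.37 in the 4 libraries.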
